A study of Mus musculus with 7 samples.

Results

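The transcripts followed here are those of the insulin-like growth factor binding proteins and of the receptors that the growth factors meet at the cell. The 9 genes were taken by symbol from the deposited tables: Igfbp2, Igfbp3, Igfbp4, Igfbp5, Igfbp6, Igfbp7, Igf1r, Igf2r and Insr. All 9 were found among 21121 genes, and 8 of them passed the filter on low read numbers and were tested; Igfbp3, with 0 to 7 reads per library, did not. The series measured lung epithelial cells of C57BL/6 mice, with no further allele or treatment named in the labels, at 5 stages: embryonic day 13.5 (E13.5), E15.5, E18.5, postnatal day 14 (P14) and P56. In every group, propidium iodide-negative cells carrying the epithelial surface protein Epcam were collected by cell sorting, without those positive for CD31, CD45, Ter119 and CD146. The 7 libraries comprise 2 of E18.5, 2 of P56 and a single one of each other stage. Whether the libraries of a stage came from separate animals, litters or sorts is not given, so p-values here reflect the spread of these samples alone, which may be technical. A sorted library is a mixture of all Epcam-positive cell types, in which fewer cells of a type and less RNA per cell cannot be told apart.

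Insulin-like growth factors are small secreted hormones, related to insulin, that drive growth of the fetus. They act through Igf1r, a tyrosine kinase receptor at the cell surface, and in part through the closely related insulin receptor Insr. Secreted binding proteins hold the growth factors in body fluids and matrix, which keeps them from the receptor or carries them to it, and proteases release them again. Igf2r has no kinase: it takes up Igf2 for breakdown and carries enzymes tagged with mannose 6-phosphate to lysosomes. In the lung the system is known for its part in prenatal growth and in the maturation of the alveoli.

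Expression is given as scaled tag counts. Libraries were made by 3' SAGE sequencing, in which 1 short tag near the 3' end stands for 1 amplified transcript, and the authors divided each library's tag counts by 1 factor. One read was worth 0.236 to 0.385 units, and depth was 2559927 to 3895740 reads per library. Levels of different genes are put together only in sums and in shares of reads, which depend on how well each gene's tag is captured. Epcam lay between 55.8 and 213 in the 7 libraries, and Ptprc and Pecam1, which encode CD45 and CD31, had 0 to 4 reads each. Among the other immune and endothelial markers, Laptm5 had 0 to 44 reads per library, Kdr 1 to 34 and Cd68 0 to 10. Of 12 mesenchymal markers 8 to 11 had reads in each library, with a summed level of 2667 at E13.5 and 1421 at E15.5, then 318 and 334 at E18.5, 284 in the P14 library, and 143 and 98.5 at P56. Without Vim, which made up most of the early sum, the same markers summed to 103, 228, 208, 199, 146, 97.9 and 58.0 in that order.

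Different binding protein transcripts were high in the early and in the late fetal epithelium. At E18.5, against the mean of E13.5 and E15.5, 2 of the 8 tested genes rose, Igfbp6 and Igfbp7, and 3 fell, Igfbp2, Igfbp4 and Igfbp5. The test was limma on log2(value + 1), and a call needed an adjusted p (Benjamini-Hochberg, over the 12964 tested genes) under 0.05. In this comparison 29.1% of all tested genes were called, 15.8% higher and 13.4% lower. From E18.5 to P56 the genes that fell were Igfbp6 and Igf1r, with 14.2% of all genes called, 8.07% higher and 6.15% lower. At P14, against E18.5, Igfbp2 rose and Igfbp6 fell, where 3.11% of all genes were called, 1.87% higher and 1.24% lower. At P56, against P14, Igfbp2 fell, with 0.818% of all genes called, 0.123% higher and 0.694% lower. Over all 5 stages together the limma F-test called 6 of the 8 genes, all but Igf2r and Insr, against 30.3% of all genes. The single libraries of E13.5 and E15.5 were compared by fold alone, without a test: Igfbp6 and Igfbp7 were higher at E15.5 by more than 2-fold on log2(value + 1) and 0 of the 8 were lower, where 21.6% of all tested genes passed that fold, 13.4% higher and 8.18% lower. The median log2 change of the 8 genes was -0.14 at E18.5 against the early stages (0.03 over all genes), -0.69 at P56 against E18.5 (0.06), -0.39 at P14 against E18.5 (0.08) and -0.43 at P56 against P14 (0.00). These comparisons share libraries and are not independent of each other. With any library of E18.5 or P56 left out, limma had 1 residual degree of freedom and called 0 genes in every comparison. An unadjusted p under 0.05 was then found for 4 or 5 of the 8 genes at E18.5 against the early stages (28.8 to 36.1% of all genes) and for 2 or 3 at P56 against E18.5 (14.2 to 25.5%). The edgeR quasi-likelihood test, with the same libraries left out in turn, called 5 or 6 of the 8 genes at E18.5 against the early stages (27.5 to 35.2% of all genes) and 2 to 4 at P56 against E18.5 (9.03 to 21.6%). Without the filter on low values both calls at P56 against E18.5 were lost (limma adjusted p = 0.0597 for Igfbp6 and 0.0820 for Igf1r), and without limma's robust step those at P14 against E18.5 and at P56 against P14 were.

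**Figure D1:**
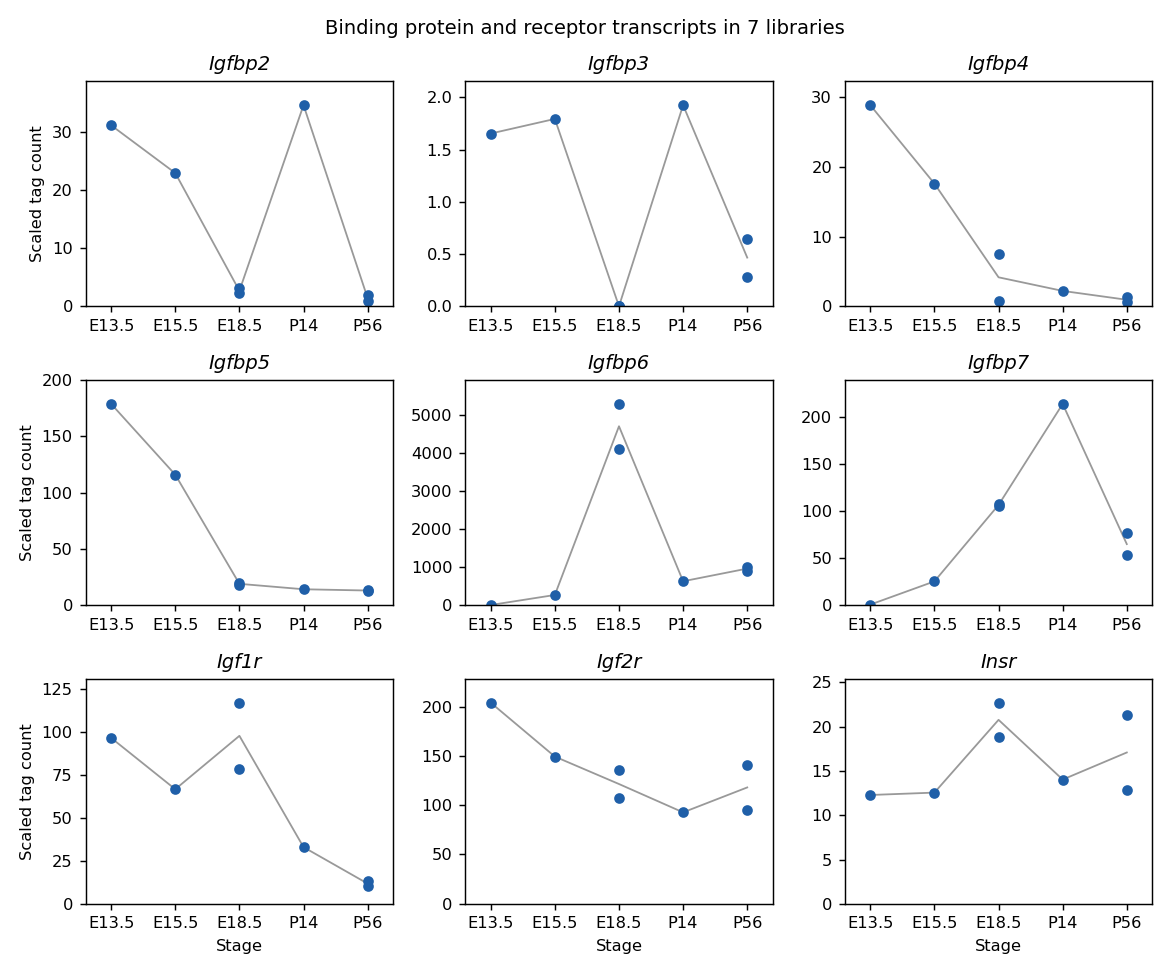
Scaled tag count (vertical axis, starting at 0, with its own scale for each gene) of the 9 genes at each stage (horizontal axis). Each point is 1 library and the line joins stage means. Igfbp6 peaks at E18.5 with 4114 and 5289, Igfbp5 and Igfbp4 are highest at E13.5, Igfbp2 is high at E13.5, E15.5 and P14, and Igf1r is lowest at P56 with 10.2 and 13.3.

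Sequences upstream of the 2 genes that rose and of 2 of the 3 that fell are shown because these genes moved in opposite directions over the same fetal interval. They are the 250 bases before the RefSeq start on GRCm38.p6, 5′ to 3′ on the gene's own strand, from chr15:102143936-102144185 (plus strand) for Igfbp6, chr5:77408046-77408295 (minus strand) for Igfbp7, chr1:72824230-72824479 (plus strand) for Igfbp2 and chr11:99040994-99041243 (plus strand) for Igfbp4. Capitals mark GGGCGG, the GC box, and TATAAA, the TATA box, on either strand.
Igfbp6: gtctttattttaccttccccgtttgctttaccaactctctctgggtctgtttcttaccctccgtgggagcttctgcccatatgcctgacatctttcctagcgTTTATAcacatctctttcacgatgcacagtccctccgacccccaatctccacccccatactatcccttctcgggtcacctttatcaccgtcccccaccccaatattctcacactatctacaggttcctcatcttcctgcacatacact
Igfbp7: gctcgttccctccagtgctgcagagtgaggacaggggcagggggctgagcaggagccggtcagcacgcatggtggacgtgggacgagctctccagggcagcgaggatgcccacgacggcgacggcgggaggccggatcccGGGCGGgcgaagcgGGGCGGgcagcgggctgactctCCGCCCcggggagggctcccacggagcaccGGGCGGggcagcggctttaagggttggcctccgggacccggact
Igfbp2: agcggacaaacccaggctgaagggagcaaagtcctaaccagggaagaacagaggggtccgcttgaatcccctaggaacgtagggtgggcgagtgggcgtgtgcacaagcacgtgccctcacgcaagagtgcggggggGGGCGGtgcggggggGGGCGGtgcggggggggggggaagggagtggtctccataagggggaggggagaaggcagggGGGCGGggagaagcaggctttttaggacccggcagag
Igfbp4: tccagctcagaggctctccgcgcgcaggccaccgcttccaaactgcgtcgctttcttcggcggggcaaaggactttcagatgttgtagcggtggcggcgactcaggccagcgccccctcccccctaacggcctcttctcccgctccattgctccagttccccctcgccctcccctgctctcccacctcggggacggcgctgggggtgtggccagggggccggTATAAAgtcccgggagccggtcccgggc

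The GC box letters occurred 4 times before Igfbp7 and 3 times before the first of 2 RefSeq starts of Igfbp2, the one shown; the window of its second start held 0 and had 56.4% G and C. They were not in the windows of Igfbp6 and Igfbp4, and were present in 32.7% of 32851 RefSeq windows of the same length, and the TATA box letters in 12.4%. The TATA box letters began 28 bases before the start in Igfbp4, on the gene's strand, and 148 bases before it in Igfbp6, on the opposite strand. G and C made up 49.6% of the Igfbp6 window, 74.0% for Igfbp7, 67.2% for Igfbp2 and 69.2% for Igfbp4. The window of Igfbp5, the other gene that fell, is not shown, and held neither the GC box nor the TATA box letters. The RefSeq start of Igfbp6 lies upstream of the GENCODE gene given below, and a stretch of bases shortly after it was found in no GENCODE transcript of the gene, so the place of its window relative to transcription is uncertain. A match describes the letters only. RefSeq windows were found for 8 of the 9 genes, all but Insr.

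Igfbp6, which encodes a binding protein with a preference for Igf2, had the largest log2 change of the 8 tested genes at E18.5 against the early stages. It lies on chromosome 15 at 102144362 to 102149511 (GRCm38, GENCODE vM21, plus strand), and like all 9 genes it is protein-coding. Its scaled tag count was 0.473 at E13.5 and 264 at E15.5, then 4114 and 5289 at E18.5, 625 in the P14 library, and 1010.5 and 906 at P56. The E13.5 library held 2 reads and the E15.5 library 737, a ratio of 559.5 with a 95% counting interval of 154 to 4629. Both E18.5 libraries stood far above every other library, and no other stage overlapped with them. The E18.5 mean of 4701 ± 831 (SD, n = 2) was 35.5-fold above the early mean of 132. The limma change, which averages the log2 values of the 2 early libraries, was 7.88 (SE 0.20, limma adjusted p = 1.96e-06). It leans on the 2 reads at E13.5, and its SE leaves out the difference between the 2 early libraries. The fall to 958 ± 73.7 (SD, n = 2) at P56 was 4.91-fold, by 2.28 on the log2 scale (SE 0.20, limma adjusted p = 0.000554). The P14 library was 7.53-fold below E18.5 (limma adjusted p = 0.00225). Between P14 and P56 the difference did not pass the test, with a log2 change of 0.61 (limma adjusted p = 0.416), so the order of these last 2 stages is not set.

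Marker sums were read beside Igfbp6 because the sort mixes cell types. The 8 alveolar type 1 markers, which label the thin gas-exchange cells, summed to 46.1 at E13.5 and 557 at E15.5, then 6007 and 6677 at E18.5, 5964 in the P14 library, and 3034 and 3482 at P56. Without Aqp5, which made up much of the later sums, the other 7 came to 43.7 and 541 in the 2 early libraries. They summed to 4076 and 4496 at E18.5, 2825 in the P14 library, and 489 and 482 at P56. Both this sum and Igfbp6 were highest at E18.5, but most of the sum there was Clic5 (2745 and 3089, against 1498 at P14). Cav1 and Akap5 were also higher in both E18.5 libraries than at P14. Ager, Pdpn, Hopx and Rtkn2 at P14 lay between the 2 E18.5 libraries, and Aqp5 was higher at P14. Of the mesothelial markers, which label the lining of the lung surface, Msln stood at 549 and 733 in the E18.5 libraries, and Wt1, Upk3b and Lrrn4 had 0 reads in both. The part of cell composition in the Igfbp6 levels was not tested.

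Igfbp7 encodes a matrix-associated protein of the same superfamily that binds growth factors weakly. It lies on chromosome 5 at 77349240 to 77408041 (minus strand), with Polr2b and a predicted gene overlapping on the other strand. Whether the counting used strand is not given, so tags of these genes may not be separated from those of Igfbp7. Its values were 0.473 at E13.5 and 25.1 at E15.5, then 105 and 108 at E18.5, 213 in the P14 library, and 52.9 and 76.4 at P56. Like Igfbp6 it had 2 reads at E13.5, against 70 at E15.5 (ratio 53.1, 95% counting interval 14.2 to 447). The level at E18.5 was 106 ± 2.15 (SD, n = 2), 8.30-fold above the early mean of 12.8. The limma change over the averaged log2 values of the 2 early libraries was 4.11 (SE 0.26, limma adjusted p = 9.00e-05), with the same limits as for Igfbp6. Unlike Igfbp6 it was highest at P14, where it was 2.01 times the E18.5 mean, a difference that did not pass the test (limma adjusted p = 0.157). From P14 to P56 it was 3.30-fold lower, with a log2 change of -1.73 that limma did not call (adjusted p = 0.0779) and edgeR did (adjusted p = 0.00752). Igfbp7 is widely used as a marker of vessel cells, and the 7 endothelial markers summed to 1.93 at P14, the lowest of the 7 libraries, and to 14.7 at most, at E15.5. At P14 6 of the 7 markers had reads, 1 or 2 each, and Pecam1 had 0. The part of vessel cells in the Igfbp7 values was not tested.

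Igfbp5 encodes a binding protein that attaches to matrix and is made by many growing tissues. It lies on chromosome 1 at 72857932 to 72874884 (minus strand), and its tail faces that of Igfbp2 across 5457 bases. Its values were 179 at E13.5 and 116 at E15.5, then 19.6 and 18.1 at E18.5, 14.0 in the P14 library, and 12.5 and 13.3 at P56. The 2 early libraries lay well above all later ones, and the later ones differed little. The level at E18.5 was 7.82-fold below the early mean, a fall by 2.87 on the log2 scale (SE 0.25, limma adjusted p = 0.000300). The further log2 change to P56 was -0.51 (limma adjusted p = 0.221). The summed mesenchymal markers named above were also highest at E13.5 and E15.5, through Vim. Their part in the Igfbp5 values was not tested.

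Igfbp4, which encodes a binding protein that mostly restrains growth factor action, lies on chromosome 11 at 99041244 to 99054392. It had 28.8 at E13.5 and 17.6 at E15.5, then 0.770 and 7.54 at E18.5, 2.201 in the P14 library, and 0.569 and 1.30 at P56. The 2 libraries of E18.5 differed more for this gene than for any other of the binding proteins in relation to their mean, with 2 and 20 reads. Its fall at E18.5, by 2.60 on the log2 scale (SE 0.73, limma adjusted p = 0.0350), was called by edgeR (adjusted p = 0.0187) but not by DESeq2 (adjusted p = 0.0797), nor without the E13.5 library (limma adjusted p = 0.160). No later comparison passed the test, and the direction from E18.5 to P56 turned when E18.5 replicate 2 was left out (log2 change 0.10).

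Igfbp2 encodes a binding protein that is abundant in fetal tissues and, in the lung, is known as a marker of mature alveolar type 1 cells. It lies on chromosome 1 at 72824503 to 72852474 (plus strand). The values were 31.2 at E13.5 and 23.0 at E15.5, then 3.08 and 2.26 at E18.5, 34.7 in the P14 library, and 0.854 and 1.94 at P56. The gene was thus high at 3 stages with 1 library each and low in all 4 libraries of the stages with 2. By E18.5 it had fallen 10.1-fold, to 2.67 ± 0.579 (SD, n = 2; log2 change -2.93, SE 0.41, limma adjusted p = 0.00217). It was 13.0-fold higher at P14 than at E18.5, on 126 reads against 14 (log2 change 3.29, SE 0.50, limma adjusted p = 0.0218). From P14 to P56 it fell 24.8-fold (log2 change -3.93, SE 0.50, limma adjusted p = 0.0173), on 9 reads over both P56 libraries. The P14 value rests on 1 library. Both calls were made by edgeR (adjusted p = 0.00139 and 0.000537) but were lost without limma's robust step (adjusted p = 0.102 and 0.163) and without the filter on low values (limma adjusted p = 0.107 and 0.0967). The sum of the alveolar type 1 markers without Aqp5, a list that leaves Igfbp2 out, was also higher at P14 than at P56 (2825 against 489 and 482). That sum was higher still at E18.5, where Igfbp2 was low, mostly through Clic5 (2745 and 3089, against 1498 at P14). Cav1 and Akap5 were also higher at E18.5 than at P14. Ager, Pdpn, Hopx and Rtkn2 at P14 lay between the 2 E18.5 libraries, and Aqp5 was higher at P14. The part of these markers in the Igfbp2 values was not tested.

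Igfbp3, the main carrier of growth factors in blood, was near the limit of detection. It lies on chromosome 11 at 7206086 to 7213923 (minus strand), and its nearest coding neighbour is Igfbp1. The libraries of E13.5 and E15.5 held 7 and 5 of its reads, both E18.5 libraries 0, the P14 library 7, and those of P56 1 and 2. On the scaled values the early mean of 1.72 was 3.02-fold above a floor of 3 reads over both E18.5 libraries. That fold takes the early reads as exact. The exact counting interval on the reads put the early level at least 2.08-fold above E18.5, a bound that covers counting error only.

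Among the reads of the 6 Igfbp genes, the share of Igfbp5 was highest at E13.5 and that of Igfbp6 at E18.5. The 6 genes took 0.0262% of all reads at E13.5 (95% exact binomial interval 0.0247 to 0.0279%) and 0.421% and 0.513% in the E18.5 libraries. Igfbp5 made up 74.1% of these reads at E13.5 (71.3 to 76.7%) and 25.9% at E15.5 (23.5 to 28.4%), and at most 1.57% from E18.5 on. Igfbp6 made up 0.196% at E13.5 (0.0237 to 0.705%), 59.1% at E15.5, then 97.0% and 97.5% at E18.5, 70.1% in the P14 library, and 93.8% and 90.6% at P56. Igfbp7 had its largest share at P14, with 23.96% (22.5 to 25.5%). Each share depends on how well each gene's tag is captured, so only its change between libraries can be read. Without Igfbp6 the other 5 genes summed to 241 at E13.5 and 183 at E15.5, then 128 and 136 at E18.5, 266 in the P14 library, and 67.2 and 93.6 at P56.

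**Figure D2:**
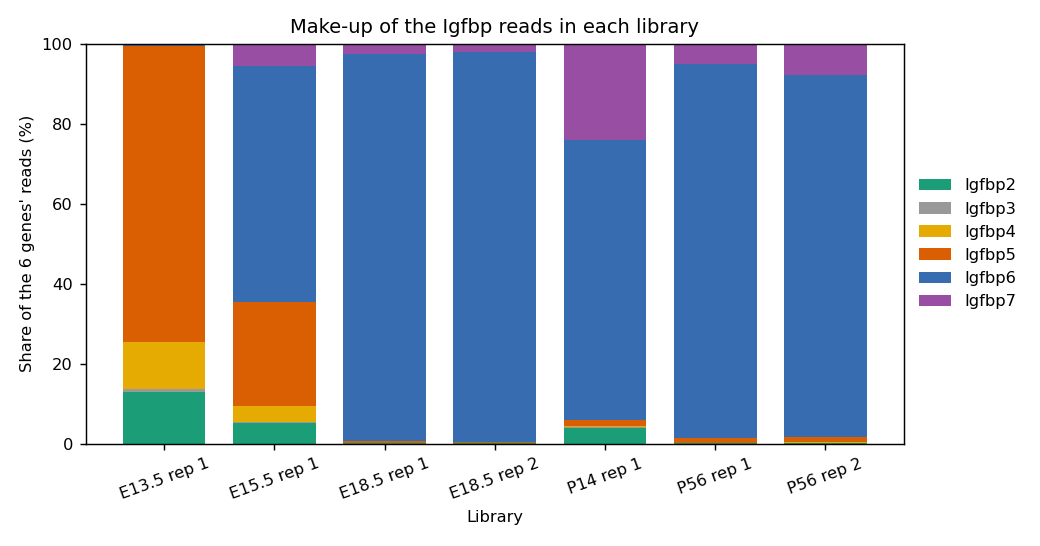
Share of the reads of the 6 Igfbp genes (vertical axis, percent, starting at 0) that each gene made up in each of the 7 libraries (horizontal axis). Each bar sums to 100% of the reads of these 6 genes. Igfbp5 fills 74.1% of the bar at E13.5 and Igfbp6 97.0% and 97.5% at E18.5.

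Of the 3 receptors only Igf1r changed by the test. Igf1r, the signalling receptor for both growth factors, lies on chromosome 7 at 67952827 to 68233668 (plus strand). Its values were 96.6 at E13.5 and 66.7 at E15.5, then 78.5 and 117 at E18.5, 33.0 in the P14 library, and 10.2 and 13.3 at P56. The fetal libraries overlapped one another, and all 4 stood above the P14 library, which stood above both P56 libraries. At E18.5 the level was 97.9 ± 27.3 (SD, n = 2), with no call against the early stages (log2 change 0.25, limma adjusted p = 0.538). At P56 it was 11.8 ± 2.15 (SD, n = 2), an 8.32-fold fall from E18.5 (log2 change -2.94, SE 0.28, limma adjusted p = 0.000938). The P14 library was 2.96-fold below E18.5, which limma did not call (log2 change -1.51, adjusted p = 0.0719) and edgeR did (adjusted p = 0.0204). The step from P14 to P56 was 2.81-fold (limma adjusted p = 0.165). From E18.5 to P56 the alveolar type 1 markers without Aqp5 went from 4076 and 4496 to 489 and 482. The 7 alveolar type 2 markers went the other way, from 9459 and 9004 to 45659 and 51511. The part of cell composition in the Igf1r values was not tested.

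Igf2r, the uptake receptor for Igf2, lies on chromosome 17 at 12682406 to 12769664 (minus strand) and is imprinted, with the non-coding gene Airn overlapping it on the other strand. Whether the counting used strand is not given, so tags of the 2 genes may not be separated. Igf2r had 204 at E13.5 and 149 at E15.5, then 136 and 107 at E18.5, 92.7 in the P14 library, and 94.8 and 141 at P56. Only the 2 early libraries lay above the range of the later ones, and no comparison passed the test (limma F-test adjusted p = 0.177). Insr, the insulin receptor, lies on chromosome 8 at 3122061 to 3279617 (minus strand). Vmn2r-ps88 and Gm16180 overlap it on the other strand, with the same limit. Insr had 12.3 at E13.5 and 12.6 at E15.5, then 22.7 and 18.8 at E18.5, 14.0 in the P14 library, and 12.8 and 21.4 at P56. The P56 libraries alone spanned most of that range, on 45 and 66 reads, and no stage could be ordered against another (limma F-test adjusted p = 0.517). From E18.5 to P56 the log2 change was -0.06 (SE 0.25) for Igf2r and -0.30 (SE 0.34) for Insr, against -2.94 for Igf1r. Whether the receptors differed from each other in their change was not tested.

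**Figure D3:**
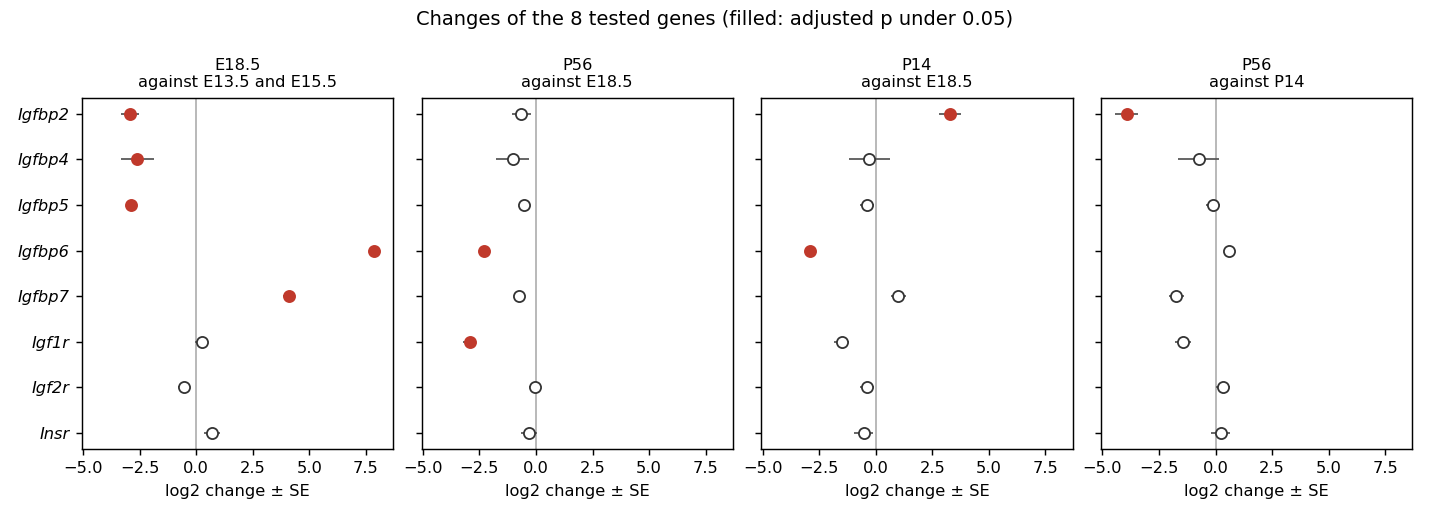
Log2 change with its standard error (horizontal axis) of the 8 tested genes (vertical axis) in the 4 stage comparisons. Filled points had a limma adjusted p under 0.05. Igfbp6 moves from 7.88 in the first panel to -2.28 in the second, and Igf1r is filled only in the second, at -2.94.

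The other genes of the pathway were taken from lists written for this work. Of 59 genes 53 were in the tables and 48 were tested. At E18.5 against the early stages 14 of the 48 rose and 4 fell, with a median log2 change of 0.33 (0.03 over all genes). Of all tested genes 15.8% were called higher there and 13.4% lower. At P56 against E18.5, 3 rose and 8 fell (median 0.01, against 0.06), with 8.07% of all genes called higher and 6.15% lower. At P14 against E18.5, 1 rose and 1 fell (1.87% and 1.24% of all genes). At P56 against P14 limma called none of the 48 (0.818% of all genes). In that last comparison 8 of the 48 had an unadjusted p under 0.05 (10.3% of all genes), and edgeR called 3 (2.06% of all genes), among them Pappa and Htra1.

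Among the ligands, Igf2, the fetal growth factor that both Igf1r and Igf2r bind, was lower at E18.5 than in the early stages, and lower again after birth. It had 292 at E13.5 and 393 at E15.5, then 37.0 and 57.6 at E18.5, 0.550 in the P14 library, and 0.285 and 1.94 at P56. The E18.5 mean was 7.23-fold below the early mean (limma adjusted p = 0.00369). The P14 library, on 2 reads, was lower than E18.5 by a read ratio of 86.2 with a counting interval of 23.6 to 716 (limma adjusted p = 0.00686). Its fall from E18.5 to P56 was 42.5-fold (log2 change -4.60, SE 0.44, limma adjusted p = 0.000912). Igf1, the other growth factor, which in lung comes mostly from non-epithelial cells, had a value of at most 2.87 in any library. Igfals, the third part of the blood carrier complex, rose from 0.709 and 7.18 to 14.3 ± 2.10 (SD, n = 2) at E18.5 (limma adjusted p = 0.00671).

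Proteases that can cut binding proteins had 3 rises and 1 fall among 5 tested at E18.5 (15.8% higher and 13.4% lower over all genes). Htra1, a secreted serine protease that cleaves several binding proteins, rose from 12.1 and 110 to 333 ± 36.1 (SD, n = 2; log2 change 3.13, SE 0.24, limma adjusted p = 0.000190). It fell 1.87-fold to 178 ± 46.7 (SD, n = 2) at P56 (limma adjusted p = 0.0429). Ctsd, a lysosomal protease, rose 2.204-fold to 1747 ± 348 (SD, n = 2) at E18.5 (limma adjusted p = 0.00767). Pappa, the metalloprotease that releases growth factors from Igfbp4, was called too, but stayed under 10 units: it had 0.709 and 3.23 in the early libraries, 8.47 and 9.04 at E18.5, 3.85 at P14 and 0 reads in both P56 libraries. Its fall to P56 was called as well (limma adjusted p = 0.00447). The E18.5 mean was 19.3-fold above a floor of 3 reads over both P56 libraries, which takes the E18.5 reads as exact. The exact counting interval on the reads put the fall at 15.1-fold or more, a bound that covers counting error only. Adamts1, a matrix protease, rose 4.02-fold from E18.5 to 59.9 ± 8.26 (SD, n = 2) at P56 (limma adjusted p = 0.00813). The fall among the proteases at E18.5 was Prss23, from 40.9 and 32.7 to 2.69 and 13.9 (limma adjusted p = 0.0329).

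Of the adaptors that sit on the receptors, Grb10 and Grb14 changed in opposite directions after birth. Grb10, an imprinted adaptor that restrains growth factor and insulin signalling, had 352 at E13.5 and 166 at E15.5, then 51.6 and 42.6 at E18.5, 17.6 in the P14 library, and 7.68 and 4.53 at P56. Grb14, a related adaptor that inhibits the insulin receptor, had 38.8, 50.2, 45.0 and 44.8 in the fetal libraries, 195 at P14 and 374 and 349 at P56. At P56 both Grb10 libraries lay below, and both Grb14 libraries above, every fetal library of that gene. From E18.5 to P56 Grb10 fell 7.71-fold (log2 change -2.79, SE 0.30, limma adjusted p = 0.00140) and Grb14 rose 8.05-fold (log2 change 2.98, SE 0.19, limma adjusted p = 0.000183). Grb14 was already higher at P14 than at E18.5 (log2 change 2.09, limma adjusted p = 0.00740). At E18.5 against the early stages 5 of 12 adaptor and substrate genes rose and 1 fell (15.8% and 13.4% of all genes). Socs3, a feedback inhibitor of cytokine receptors, rose from 2.36 and 2.87 to 30.8 ± 3.84 (SD, n = 2, limma adjusted p = 0.000361). Ptpn1, a phosphatase that acts on the insulin receptor, rose 2.83-fold to 161 ± 4.54 (SD, n = 2, limma adjusted p = 0.00156). Socs2, which restrains growth hormone signalling, rose 2.91-fold (limma adjusted p = 0.00536), and Grb10 was the gene that fell (limma adjusted p = 0.00149). Gab1, a docking protein, fell 2.92-fold from E18.5 to P56 (limma adjusted p = 0.0227). The substrates Irs1 and Irs2 passed no comparison, with values of at most 20.8 and 5.39.

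**Figure D4:**
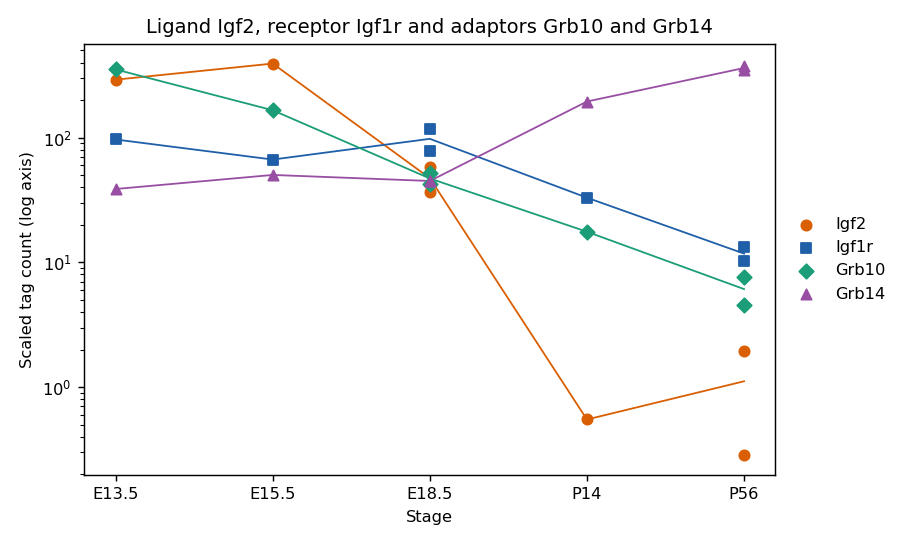
Scaled tag count on a log axis (vertical) of Igf2, Igf1r, Grb10 and Grb14 at each stage (horizontal). Each marker is 1 library and lines join stage means. Igf2, Igf1r and Grb10 are lower at P56 than in any fetal library, and Grb14 is higher, at 374 and 349.

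The kinase arm below the receptors runs through PI3K, Akt and mTOR. At E18.5 against the early stages 4 of its 23 genes rose and 1 fell (15.8% higher and 13.4% lower over all genes). Pik3cb, a catalytic subunit of PI3K, rose 4.85-fold to 53.1 ± 2.69 (SD, n = 2; limma adjusted p = 0.00172), Akt2, the kinase best known from insulin action, 1.84-fold to 465 ± 83.6 (SD, n = 2; limma adjusted p = 0.0148), and Pik3ca, another catalytic subunit, 2.87-fold. Rps6kb1, a growth kinase below mTOR, fell 2.31-fold to 51.6 ± 1.63 (SD, n = 2; limma adjusted p = 0.00763). At P56 against E18.5 the regulatory subunit gene Pik3r1 rose 2.71-fold (limma adjusted p = 0.0246), and Pik3cb fell 2.32-fold (limma adjusted p = 0.0323). The mannose 6-phosphate system that supplies cargo to Igf2r had 1 call among 4 genes at E18.5 against the early stages (29.1% of all genes). M6pr, the second receptor for the same tag, rose 1.503-fold to 669 ± 26.4 (SD, n = 2, limma adjusted p = 0.0376). Over all stages the limma F-test called M6pr and Gnptab, which encodes the enzyme that adds the tag (adjusted p = 0.0257 and 0.0327). That F-test called 30.3% of all genes. Lrp1, a large scavenging receptor that binds Igfbp3, fell 3.59-fold from E18.5 to P56 (limma adjusted p = 0.0163).

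**Figure D5:**
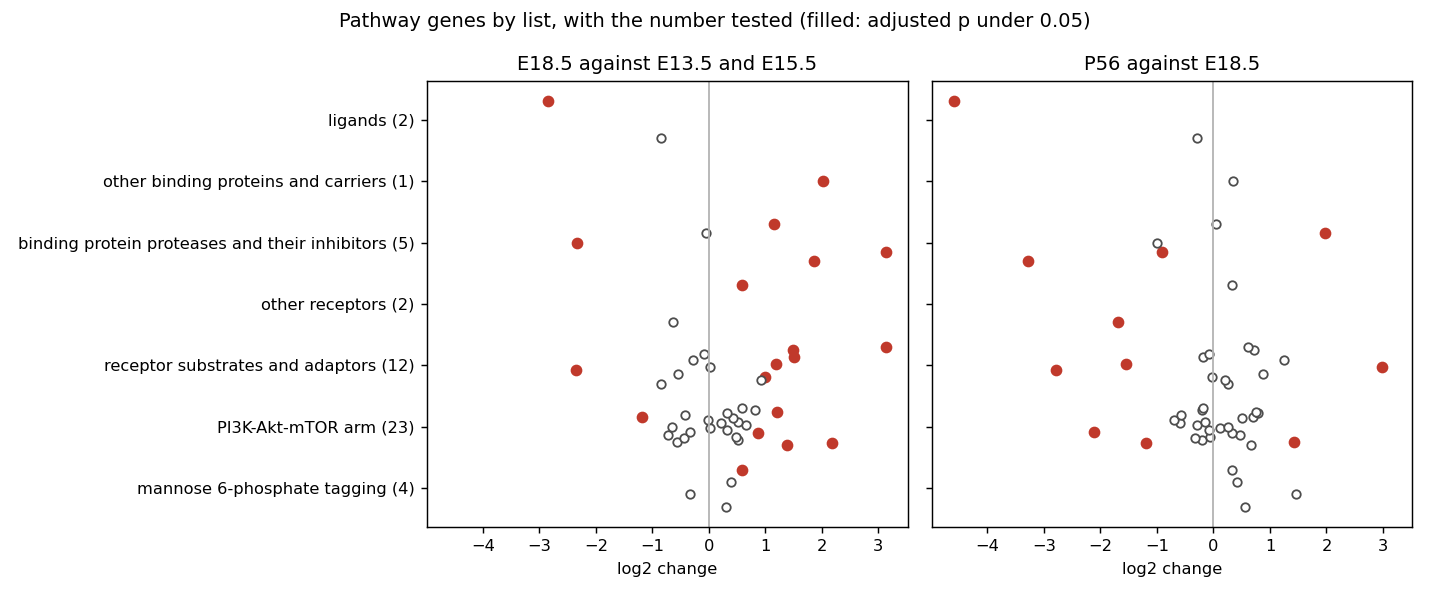
Log2 change (horizontal axis) of the 48 tested pathway genes by list (vertical axis, with the number tested, M6pr standing in 2 lists) at E18.5 against the early stages and at P56 against E18.5. Filled points had a limma adjusted p under 0.05. Igf2 is the filled point farthest to the left at P56, at -4.60, and Grb14 the one farthest to the right, at 2.98.

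Genes whose levels ran most like each member's over the 7 libraries were looked up among 2035 tested genes with a mean of at least 100 in their highest stage. Closest to Igfbp6 were Sik1 (Pearson r = 0.998), a kinase of the salt-inducible family, Itm2b (0.994) and Mapkapk3 (0.991). Closest to Igfbp7 were St6galnac2 (0.996), Slc15a2 (0.989) and Mxd4 (0.988). Igfbp5 ran most like Myh10 (0.995), a non-muscle myosin, Me2 (0.991) and Hnrnpa1 (0.991). Igf1r ran most like Txndc5 (0.986), Rtn4 (0.985) and Dcaf12 (0.980). The closest genes to Igfbp4, Igfbp2, Igf2r and Insr were Ddx39b (0.972), Mapk14 (0.954), Eif5a (0.943) and Cep350 (0.882). These values are on log2(value + 1) over 7 libraries that differ mainly by stage, and serve as a description only.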

How the data were processed

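Lung epithelial cells were profiled at 5 stages in 7 libraries. Amplified polyadenylated RNA was made into 3' SAGE libraries and sequenced on the Ion Proton, per the labels' protocols. The submitters' processing notes name Bowtie2 (2.2.5), R (3.4.0) and the mm10 genome. The deposited value is a signal: each gene's tag count over a library-wide factor that the authors applied, as read from the values, of which 100% gave whole reads within 0.01. The counting tool, annotation, strand setting and scaling method are not given in the sources used here.

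Of 21121 genes, 12964 passed edgeR's filterByExpr by stage on the recovered reads. Stage contrasts came from limma-trend (robust) on log2(value + 1), which understates changes of low genes, in 1 fit of all libraries with 2 residual degrees of freedom. Stages with 1 library borrowed the spread of the others. E15.5 and E13.5 were compared without a test. Alternatives were edgeR, DESeq2, other scalings, filters and pseudocounts, a replicate block and left-out libraries. Genes at 0 reads were given a floor of 3 reads, and intervals are exact at 95% and cover counting error only. Tested on simulated data with 1 draw per comparison, limma made more false calls than its threshold allows except at P56 against P14, and edgeR did so at E18.5 against the early stages. All 9 genes are named. From each pathway list up to 4 called genes per comparison are named, taking the smallest p among those whose higher stage averaged 10 or more. Pappa, Igf1, Irs1 and Irs2 fall outside that rule and were named after their values were seen. A pathway gene that the rule would name is counted but not reported here. The genes and lists were chosen with earlier results of these data known. Software was limma 3.58.1, edgeR 4.0.16 and DESeq2 1.42.0 under R 4.3.3, and Python 3.11.15.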

Additional observations from a re-analysis of the deposited data

How the results depend on the processing

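Counts below are of the 8 tested binding protein and receptor genes. With single libraries left out, limma called 0 to 5 at E18.5 against the early stages, 0 to 2 at P56 against E18.5, 0 to 2 at P14 against E18.5, 0 to 1 at P56 against P14 and 0 to 6 over all stages. The zeros came with each library of E18.5 or P56 left out, which leaves 1 residual degree of freedom. An unadjusted p under 0.05 was then found for 4 to 5, 2 to 3, 3 to 4, 2 to 4 and 5 to 6 genes in that order, against 28.8 to 36.1%, 14.2 to 25.5%, 11.2 to 18.3%, 5.16 to 10.5% and 19.7 to 35.1% of all genes. In an alternative chosen after seeing the data, edgeR without those same libraries called 5 to 6, 2 to 4, 3, 1 to 3 and 6 to 7, against 27.5 to 35.2%, 9.03 to 21.6%, 4.35 to 12.4%, 0.987 to 5.74% and 28.2 to 53.2% of all genes. Without E18.5 replicate 1 edgeR called 4 at P56 against E18.5 and 3 at P56 against P14, where leaving out E18.5 replicate 2 gave 3 and leaving out P56 replicate 2 gave 2. With no filter on low values the counts were 0 at P56 against E18.5, 1 at P14 against E18.5, 0 at P56 against P14 and 3 over all stages. Without the robust step limma called 0 at P14 against E18.5 and 0 at P56 against P14. For P56 against P14, edgeR, DESeq2 and a filter at a mean value of at least 5 each called 2. The cause of these differences was not tested.

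Samples of the same replicate number did not deviate together (r = -0.037 over 6807 genes). This check sets E18.5 beside P56 alone, so it cannot settle whether the numbers stand for a shared batch. With the replicate block 0 genes were called at P14 against E18.5 and 0 at P56 against P14 (4 and 3 had an unadjusted p under 0.05, against 14.5% and 8.38% of all genes), and the log2 change of Igfbp4 at P14 against E18.5 turned to 0.4245. The block called 5 genes over all stages and changed no call at E18.5 against the early stages or at P56 against E18.5.

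Directions turned for uncalled changes. Over the left-out libraries Igf1r at E18.5 against the early stages ran from -0.03213 (edgeR -0.01057), without E18.5 replicate 2, to 0.539, and was -0.01036 without E15.5 replicate 1. Against E18.5, Igfbp4 ran from -2.169 to 0.1006 (edgeR 0.1595) at P56 and from -1.415 to 0.8547 (edgeR 1.395) at P14, the positive values without E18.5 replicate 2. At P56 against E18.5 Igf2r ran from -0.3451 to 0.2254 (edgeR 0.1348), without P56 replicate 1, and was 0.1067 (edgeR 0.07102) without E18.5 replicate 1, and Insr ran from -0.6518 to 0.0449, without P56 replicate 1. At P56 against P14 Insr ran from -0.1226 (edgeR -0.1224), without P56 replicate 2, to 0.5741. Other scalings moved the median of all genes by at most 0.07.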
